A study of Mus musculus with 32 samples.

Results

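The genes of the Ikaros family, Ikzf1 to Ikzf5, were examined as possible binding sites of Ikaros itself. All peaks within 50 kb of the gene body of a member were taken, by position alone, from 24 lists of peaks measured by chromatin immunoprecipitation with sequencing (ChIP-seq). The 5 members are a small part of the 21951 protein-coding genes of the annotation, and 618 of the 338060 peaks lay near them. The cells were B3, a mouse pre-B cell line. All of them carried HA-Ikaros-ERt2, Ikaros with an HA tag and a tamoxifen-responsive domain, brought in by retroviral transduction. The cells of the 0 h group were untreated, and the other groups received 500 nM 4-hydroxytamoxifen (4-OHT), which moves the fusion protein into the nucleus, for 30 min, 1 h or 2 h. Each of the 4 times had 2 libraries for each of 3 targets, which were HA-Ikaros (pulled down through the HA tag), CHD4 (the ATPase of the NuRD corepressor) and acetylated lysine 27 of histone H3 (H3K27ac, found at promoters and enhancers in use). The line also has its own Ikzf1 gene, whose untagged product the HA pull-down does not target, and no cells without the construct or with a vehicle alone were among these groups. The labels do not say whether the replicates were separate cultures, so the p-values measure the spread between these libraries, which may be technical.

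Ikaros proteins bind DNA through zinc fingers at the amino end and pair with each other through zinc fingers at the carboxyl end. Ikzf1 (Ikaros), Ikzf3 (Aiolos) and Ikzf2 (Helios) are the lymphoid members, with Helios best known from T cells, Ikzf4 (Eos) acts in regulatory T cells, and Ikzf5 (Pegasus) is the most divergent and is expressed widely. In B cell development Ikaros is needed for the lineage to form and Aiolos rises as pre-B cells mature, and both recruit NuRD to many of their sites. Whether the factor sits at its own gene and at those of its relatives, and what H3K27ac does there in the first 2 h, is the question of the values below.

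Peaks of a target that overlapped or touched in any of its 8 lists were merged into one region. Near the members lay 38 of 23844 Ikaros regions, 21 of 15355 CHD4 regions and 87 of 39289 H3K27ac regions. Ikzf1 held most of them, with 20 Ikaros, 12 CHD4 and 67 H3K27ac regions. Ikzf3 had 8, 3 and 12 regions of these targets in that order, Ikzf4 had 8, 6 and 5, and Ikzf5 had 2, 0 and 3. No list of any target held a peak within 50 kb of Ikzf2, so the Helios gene was without a called signal in these cells. The H3K27ac lists fitted the pre-B label, as 8 of 8 pre-B marker genes had a peak at a transcription start site (TSS) in all 8 libraries, against 0 of 4 T cell, 0 of 4 myeloid, 0 of 2 fibroblast and 1 of 3 erythroid markers, the last being Klf1. Lists differed in length, from 5373 to 14874 peaks for Ikaros, from 2488 to 9593 for CHD4 and from 21468 to 33664 for H3K27ac, and the longest H3K27ac list was 2 h replicate 1.

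The windows under the Ikaros peaks at the 2 lymphoid genes with the most signal are shown here because they lie in regions whose values by time are described below. Those values are the highest fold of each library anywhere in the region, and the summit behind one can lie outside the window. Each is the 201 bp around the summit of the highest peak of the region, on the plus strand of GRCm38/mm10, with the letters GGGAA and TTCCC, the core of the known Ikaros motif read on either strand, in capitals. Overlapping matches were counted apart. The distances in the labels run from the gene to the near edge of the region, not to the window.
Ikzf1, 28159 bp upstream of the gene, chr11:11656364-11656564: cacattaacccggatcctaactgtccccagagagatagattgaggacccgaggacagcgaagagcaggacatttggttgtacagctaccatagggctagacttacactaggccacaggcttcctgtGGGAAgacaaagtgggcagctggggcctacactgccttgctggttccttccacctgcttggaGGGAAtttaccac
Ikzf1, 25438 bp upstream of the gene, chr11:11658927-11659127: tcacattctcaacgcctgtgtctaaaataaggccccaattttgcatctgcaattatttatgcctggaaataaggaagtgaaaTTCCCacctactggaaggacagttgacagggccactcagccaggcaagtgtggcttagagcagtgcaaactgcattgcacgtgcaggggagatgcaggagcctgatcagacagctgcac
Ikzf1, intron near the 5′ end, chr11:11690182-11690382: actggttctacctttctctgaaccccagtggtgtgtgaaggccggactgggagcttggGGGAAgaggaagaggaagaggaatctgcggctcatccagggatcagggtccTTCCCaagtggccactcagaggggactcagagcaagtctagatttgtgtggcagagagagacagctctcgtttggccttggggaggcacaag
Ikzf1, intron near the 3′ end, chr11:11763424-11763624: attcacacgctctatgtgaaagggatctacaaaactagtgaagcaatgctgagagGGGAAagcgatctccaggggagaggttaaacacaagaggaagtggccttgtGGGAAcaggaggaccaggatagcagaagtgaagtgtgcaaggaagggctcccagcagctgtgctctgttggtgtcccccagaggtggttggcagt
Ikzf3, 4840 bp past the 3′ end, chr11:98459293-98459493: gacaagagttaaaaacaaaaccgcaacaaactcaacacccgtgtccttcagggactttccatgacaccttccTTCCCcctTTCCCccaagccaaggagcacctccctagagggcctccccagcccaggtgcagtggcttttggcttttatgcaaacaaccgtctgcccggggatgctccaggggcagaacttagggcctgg
All 5 windows held the core, 4 of them in 2 copies, but they are a selection. Upstream of Ikzf1, chr11:11657040-11657951 and chr11:11679034-11679566 are also described below, are not shown and held 1 copy each. Over the members the core was present in 29 of 38 windows (76.3%), beside 59.3% of the 23844 Ikaros windows genome-wide and 69.9% of the 2305 windows of regions called in all 8 libraries. A match of these letters describes the sequence and does not by itself mark a bound site.

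Ikaros was called near 4 of the 5 genes at 0 h and at every later time, all but Ikzf2, and at the TSS of none. A region called in both 2 h libraries lay within 50 kb of 50.5% of protein-coding genes and within 1 kb of a TSS of 21.4%, and with 5 genes a count of 4 cannot be told apart from the first share. At 0 h the share within 50 kb was 40.2%. Of the 38 Ikaros regions, 14 were called in both 2 h libraries, beside 37.0% of all Ikaros regions. These were 6 at Ikzf1, 2 at Ikzf3, 4 at Ikzf4 and 2 at Ikzf5. By calls in both 2 h and neither 0 h library, 4 regions were gained, beside 12.0% genome-wide, and 2 were lost by the reverse rule, beside 3.59%. These counts turned with the length of the lists. With every list held to the same number of peaks, 23 Ikaros regions were near members, of which 2 were called in both 2 h libraries (25.2% genome-wide), 1 was gained (7.63%) and 5 were lost (9.87%), so that losses outnumbered gains. H3K27ac and CHD4 lay on many of the same places. Of the 14 regions, 12 overlapped an H3K27ac region of both 2 h libraries and 5 a CHD4 region, and genome-wide these shares were 90.7% and 31.2% of 8829 Ikaros regions.

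**Figure D1:**
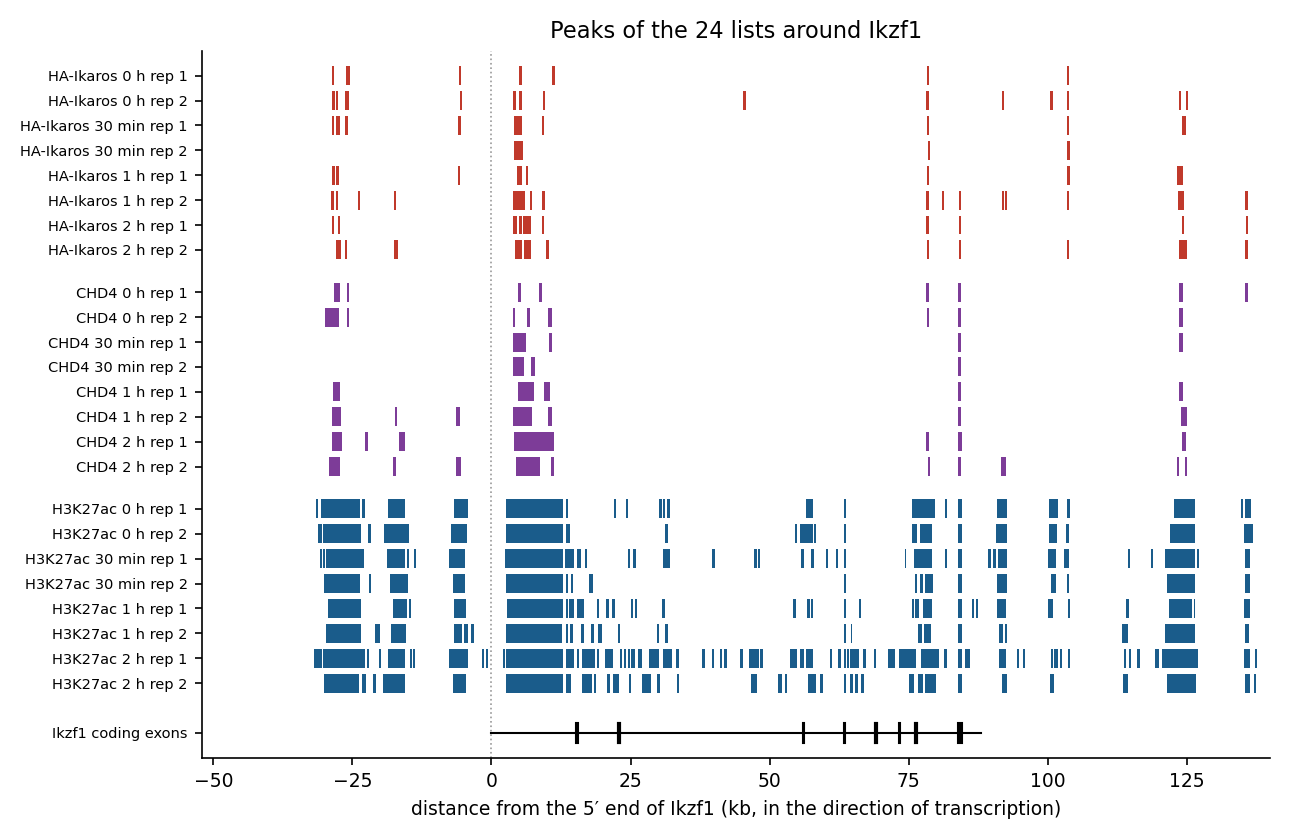
Map of the Ikzf1 gene and 50 kb on each side, drawn as distance from the 5′ end of the gene in kb, with the peaks of each of the 24 lists as bars on a line of their own and the coding exons as black ticks. Ikaros peaks recur inside the gene near the 5′ end and near the 3′ end in all 8 libraries, and the H3K27ac peaks of 2 h replicate 1 cover more of the gene body than those of any other list.

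Inside its own gene Ikaros was called in all 8 libraries at chr11:11688815-11692220, in an intron of Ikzf1 2370 bp from the nearest annotated TSS. Its fold enrichment, the height of the peak over the local background as the authors' peak caller gave it, was 7.71 and 6.24 in the 0 h replicates 1 and 2. It was 7.28 and 7.04 at 30 min, 5.99 and 6.88 at 1 h, and 4.99 and 7.68 at 2 h. The 4.99 of 2 h replicate 1 came from a peak with its summit at position 11691997, whereas the other 7 values had summits between 11690141 and 11690289. Its peak there, with the summit at 11690308, had a fold of 4.02 with 22 fragments at the summit, so the changes below set unlike positions side by side for that library. The 4 times overlapped, and no call was made. Against 0 h the log2 change in fold was 0.20, −0.20 and −0.08 at 30 min, 1 h and 2 h (SE 0.35, limma adjusted p 0.815, 0.792 and 0.922). The number of fragments at the summit was 45 and 64 at 0 h, 31 and 20 at 30 min, 33 and 36 at 1 h, and 23 and 28 at 2 h, while the mean coverage of the Ikaros libraries also stood higher at 0 h, at 3.13 to 3.59 fragments per base against 1.98 to 2.85 at the later times. With summit fragments over coverage in place of the fold, the 2 h change was −0.68 with a limma adjusted p of 0.0464, and at 30 min the sign turned, to −0.43. Among the peaks of its own list this site stood between percentile 67.0 and 91.0 by fold.

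CHD4 covered the same stretch of Ikzf1 in all 8 libraries, as the region chr11:11688907-11696235. Its fold was 4.12 and 3.32 at 0 h, 3.41 and 3.59 at 30 min, 3.70 and 3.45 at 1 h, and 3.20 and 3.47 at 2 h. The times overlapped, and the log2 changes were −0.03, −0.09 and −0.04 (SE 0.12, limma adjusted p 0.985, 0.869 and 0.973). H3K27ac was also called there in all 8 libraries, over chr11:11687489-11697945, at percentile 94.2 to 99.3 of the lists. The H3K27ac fold was 27.6 and 32.9 at 0 h, 43.4 and 21.4 at 30 min, 25.7 and 22.6 at 1 h, and 28.8 and 25.6 at 2 h. The 30 min replicates spanned every other value, and at 2 h the log2 change of 0.31 (SE 0.28, limma adjusted p 0.633) was not called. Ikaros, CHD4 and H3K27ac were thus all present at the 5′ end of Ikzf1 before and after 4-OHT.

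At an intronic site near the 3′ end of Ikzf1 the Ikaros signal was highest before induction. At the intronic region chr11:11763066-11763751 the Ikaros fold was 7.59 and 9.55 at 0 h, 3.67 and 4.69 at 30 min, 4.26 and 2.56 at 1 h, and 4.42 and 4.24 at 2 h. Both 0 h libraries stood above the 6 later ones, with no overlap. The log2 change was −0.88 at 30 min, −1.46 at 1 h and −0.89 at 2 h (SE 0.34), and it passed the test at 1 h alone (limma adjusted p 0.160, 0.00664 and 0.119). The 1 h call ended without 0 h replicate 2 (limma adjusted p 0.0603) or without 1 h replicate 2 (0.154). With summit fragments over coverage the change was −1.15, −1.33 and −1.12 and was called at all 3 times (limma adjusted p 0.00336, 0.000656 and 0.00287). CHD4 at chr11:11763110-11763779 was called at 0 h (3.17 and 3.49) and again at 2 h (3 and 2.99), but in none of the 30 min and 1 h lists. H3K27ac over chr11:11758197-11765472, which holds this site, had folds of 12 and 10.1 at 0 h, 9.68 and 8.35 at 30 min, 8.29 and 5.11 at 1 h, and 10.7 and 6.08 at 2 h. The 0 h and 2 h values overlapped, and the log2 change at 2 h was 0.01 (SE 0.30). That value is relative to the median of all regions and turned to −0.20 with a mean fold weighted by peak width.

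Upstream of Ikzf1 lay a cluster of Ikaros regions with CHD4 and H3K27ac. At chr11:11658631-11659565 the Ikaros fold was 8.35 and 10.1 at 0 h, 3.96 in 30 min replicate 1 and 4.16 in 2 h replicate 2, with no peak in the other 4 lists. CHD4 at chr11:11658969-11659470 was called at 0 h only, with folds of 3.57 and 3.81, and was counted as lost. At chr11:11656226-11656844 Ikaros had folds of 6.39 and 6.72 at 0 h, 5.65 in 30 min replicate 1, 4.30 and 4.95 at 1 h and 3.05 in 2 h replicate 1, and no peak in the second 30 min and 2 h libraries. The neighbouring region chr11:11657040-11657951 went the other way in its calls, with a peak in 1 of the 0 h libraries (3.48), in 30 min replicate 1 (5.65) and in both 1 h (4.32 and 4.97) and both 2 h libraries (3.90 and 5.76). A weaker Ikaros region 5437 bp upstream of the gene, chr11:11679034-11679566, was lost, with folds of 2.97 and 3.53 at 0 h, 4.04 in 30 min replicate 1 and 3.75 in 1 h replicate 1. These regions were not in all 8 lists and have no test. A missing peak means that the region was under the caller's threshold in that library, and the later Ikaros libraries were the shallower ones. Whether depth played a part in these losses was not tested.

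H3K27ac over the upstream cluster did not pass the test by fold. At chr11:11654745-11662411 the fold was 27 and 15.5 at 0 h, 21.7 and 15.1 at 30 min, 14.6 and 12.6 at 1 h, and 13.8 and 14 at 2 h. Both 0 h values stood above both 2 h values, and the log2 change of −0.10 at 2 h (SE 0.27) became −0.57 with summit fragments over coverage (limma adjusted p 0.00334). At chr11:11677329-11680860, 4143 bp upstream of the gene, it was 16.3 and 13.3 at 0 h, 15.2 and 11.4 at 30 min, 8.79 and 6.87 at 1 h, and 9.25 and 5.74 at 2 h. The 1 h and 2 h values all lay under the 0 h values, and the 2 h change was −0.55 by fold (SE 0.28, limma adjusted p 0.350) and −0.61 by summit fragments (limma adjusted p 0.00992).

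**Figure D2:**
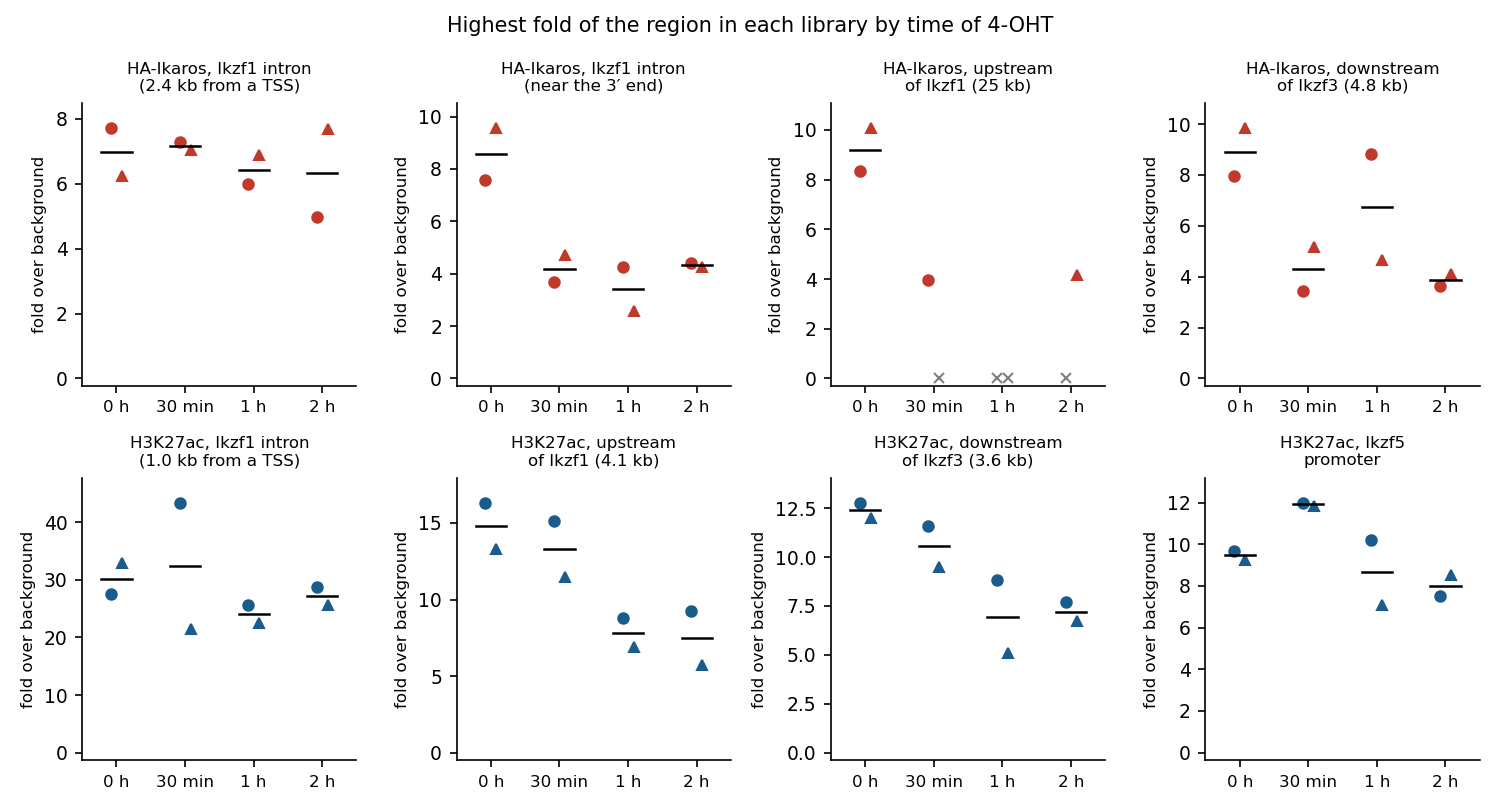
Fold enrichment by time (y axis, highest fold of the region) in 8 regions near Ikzf1, Ikzf3 and Ikzf5, with a circle for replicate 1, a triangle for replicate 2, a bar at the mean of the 2 and a grey cross at 0 where a library had no peak. Ikaros at the 5′ Ikzf1 intron overlaps between times, whereas its folds at the intronic site near the 3′ end and 25 kb upstream of Ikzf1 are highest in the 0 h libraries.

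At Ikzf3 the main Ikaros site lay outside the gene, at chr11:98458267-98460062, 4840 bp past its 3′ end, and the nearest protein-coding TSS is that of Grb7. Its Ikaros fold was 7.97 and 9.83 at 0 h, 3.42 and 5.15 at 30 min, 8.81 and 4.67 at 1 h, and 3.64 and 4.12 at 2 h. The 2 h values lay under both 0 h values, while 1 h replicate 1 fell within the 0 h range. The log2 changes were −0.92, −0.56 and −1.11 (SE 0.36), and none was called (limma adjusted p 0.164, 0.374 and 0.0584). The 2 h change was called with a replicate block (adjusted p 0.0378), with a fold weighted by peak width (0.0473) and with summit fragments over coverage (0.0293), all in limma. CHD4 at chr11:98457481-98459790 was called in 6 libraries, with folds of 3.62 and 3.46 at 0 h, 3.15 and 3.30 at 30 min, 3.91 in 1 h replicate 1 and 3.24 in 2 h replicate 2.

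H3K27ac at that Ikzf3 site, chr11:98456786-98461305, had folds of 12.8 and 12 at 0 h, 11.6 and 9.51 at 30 min, 8.82 and 5.07 at 1 h, and 7.71 and 6.72 at 2 h. All 4 values at 1 h and 2 h lay under the 0 h and 30 min values, but the change at 2 h relative to the median region was −0.32 (SE 0.26, limma adjusted p 0.591). The length covered by the peaks there was 4282 and 3929 bp at 0 h, 3348 and 4102 bp at 30 min, 2976 and 2354 bp at 1 h, and 2828 and 2413 bp at 2 h. Inside Ikzf3, the intronic H3K27ac region chr11:98491974-98494214 had folds of 6.41 and 4.84 at 0 h, 3.79 and 4.29 at 30 min, 4.09 and 2.92 at 1 h, and 3.37 and 3.30 at 2 h. Every later value lay under both 0 h values, and the 2 h log2 change was −0.28 and was not called. In that intron Ikaros was called in 2 lists only, 1 of 1 h (3.41) and 1 of 2 h (4.90), a region given here after its values were seen. A further intronic H3K27ac region of Ikzf3, chr11:98497175-98498067, was missing from 1 h replicate 2, with folds of 5.68 and 4.28 at 0 h, 6.52 and 5.62 at 30 min, 4.28 in 1 h replicate 1, and 2.57 and 2.65 at 2 h. Its 2 h values were under all the others, but these folds are not centred on the median region, and it has no test. H3K27ac at the Ikzf3 TSS was called in replicate 1 of 0 h (4.05), 30 min (4.84) and 1 h (3.11) and in no other list. Both of these regions were chosen after their values were seen. Many of the remaining calls in the window lay at neighbouring genes. At the TSS of Grb7, an adaptor protein gene, Ikaros folds of 8.62 and 7.50 and CHD4 folds of 3.96 and 3.88 at 0 h were followed by no peak in any later list. At the TSS of Zpbp2 Ikaros was called in 7 of 8 libraries.

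**Figure D3:**
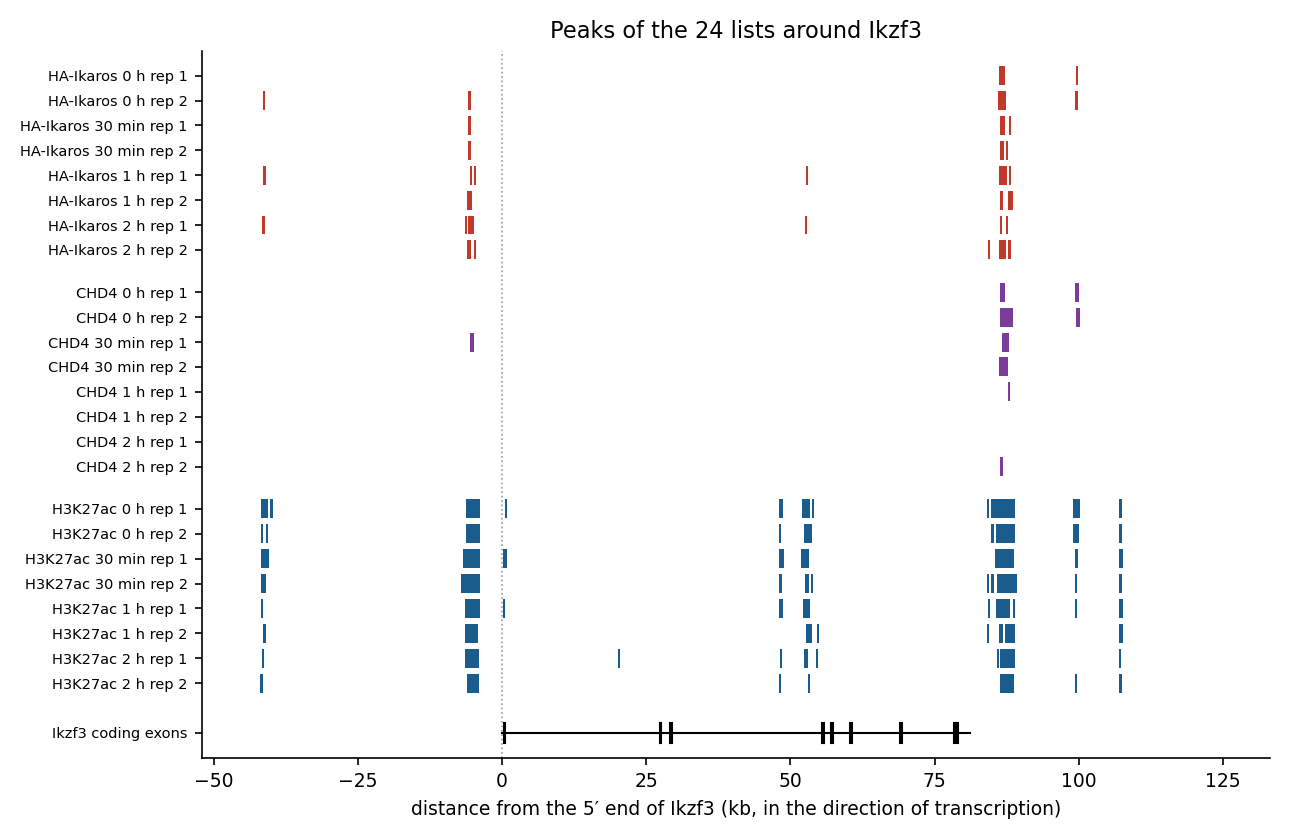
Map of the Ikzf3 gene and 50 kb on each side, as distance from the 5′ end in the direction of transcription, in kb, with the peaks of each list as bars on a line of their own. The Ikaros and CHD4 peaks past the 3′ end of the gene are visible at several times, and the H3K27ac peaks there cover 2354 to 2976 bp in the 1 h and 2 h lists, against 3929 and 4282 bp at 0 h.

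Near Ikzf4 no list of any target held a peak on the gene body. The nearest upstream Ikaros region, 7560 bp from the gene at chr10:128653551-128654342, had folds of 3.02 and 7.27 at 0 h, 3.96 in 30 min replicate 1, 4.26 and 4.33 at 1 h, and 3.52 and 3.84 at 2 h. The 0 h replicates spanned all later values. The gained region was at the TSS of Rps26, a ribosomal protein gene 3584 bp past the 3′ end of Ikzf4, where Ikaros was absent from both 0 h lists and had folds of 3.09 and 4.13 at 30 min, 4.85 and 5.69 at 1 h, and 5.29 and 6.10 at 2 h. The region at the TSS of Suox, tested in all 8 libraries, gave log2 changes of −0.02, −0.24 and −0.39, none called. CHD4 was gained at chr10:128607035-128607971 (2.96 and 3.65 at 2 h), 22872 bp past the gene.

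Among the regions tested, the largest called change near a member lay downstream of Ikzf5, at the TSS of 2310057M21Rik, 25309 bp past the end of Ikzf5. At chr7:131362464-131363343 the Ikaros fold was 17.2 and 18.9 at 0 h, 4.90 and 5.15 at 30 min, 4.70 and 7.95 at 1 h, and 5.71 and 5.44 at 2 h. The 0 h libraries stood far above the other 6. Within its list the site went from percentile 99.2 and 99.5 at 0 h to between 45.6 and 91.7 later, in lists of unlike length. The log2 change was −1.69, −1.65 and −1.61 (SE 0.35, limma adjusted p 0.00376, 0.00274 and 0.00390). The calls ended under quantile normalization, where the changes were −1.36, −1.33 and −1.28 (limma adjusted p 0.0686, 0.0590 and 0.0631), and without 30 min replicate 1 (0.0581), 1 h replicate 1 (0.0788) or 2 h replicate 2 (0.0622). With summit fragments over coverage the 2 h change was −1.71 (limma adjusted p 2.2e-05). The other Ikaros region, at the TSS of Pstk, was gained with folds of 3.64 and 3.77 at 2 h. CHD4 was called in none of the 8 lists there. Ikzf5 was the only member with H3K27ac within 1 kb of its TSS in both 2 h libraries, beside 43.3% of all protein-coding genes. The H3K27ac region at the 5′ end of Ikzf1, called in all 8 libraries, began 1044 bp from a TSS of Ikzf1, just past that limit. The Ikzf5 promoter, chr7:131408932-131411052, had H3K27ac folds of 9.69 and 9.27 at 0 h, 12 and 11.8 at 30 min, 10.2 and 7.08 at 1 h, and 7.51 and 8.52 at 2 h. The 2 h values lay just under those of 0 h, with a log2 change relative to the median region of 0.22 (SE 0.27, limma adjusted p 0.746).

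Taken over the Ikaros regions called in all 8 libraries, 5 of 2305 were near members, and all changes that passed the test were decreases. They numbered 1, 2 and 1 at 30 min, 1 h and 2 h, beside 2.82%, 4.86% and 4.69% of all tested regions lower. Decreases were also the more common calls over all tested regions, with 65, 112 and 108 lower against 11, 40 and 28 higher. The median log2 change of the 5 tested regions, called or not, was −0.88, −0.56 and −0.89, beside 0.00168, −0.00720 and −0.00351 over all tested. With ranks of the fold within the shared regions in place of the fold, limma called 0 Ikaros regions at any time, near members or elsewhere. For CHD4, 2 of 723 tested regions were near members and 0 were called at each time, beside 0.138%, 0.415% and 0.553%. At an unadjusted limma p under 0.05 there were also 0, beside 6.36%, 6.09% and 7.33%. For H3K27ac, 21 of 14715 were near members and 0 were called, beside 0.00680%, 0.231% and 0.408%. At an unadjusted limma p under 0.05 there were 2, 5 and 4 of the 21, beside 9.47%, 13.7% and 15.9% of all tested. With summit fragments over coverage 3, 5 and 5 were called, beside 5.13%, 16.7% and 21.7%, so that at 2 h the count near members was close to the background. With 2 libraries at each time, a count of 0 does not show that the mark or CHD4 was unchanged.

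H3K27ac was within 50 kb of 4 of 5 members in both 2 h libraries, beside 68.1% of genes, and CHD4 near 2 of 5, Ikzf1 and Ikzf4, beside 21.9%. At a TSS, CHD4 was at 0 of 5, beside 5.89%. Within 50 kb at the earlier times, CHD4 was near Ikzf1 and Ikzf3 at 0 h and 30 min and near Ikzf1 alone at 1 h. These stood beside 14.1%, 14.9% and 22.6% of genes. Of the 87 H3K27ac regions, 36 were called in both 2 h libraries (45.2% genome-wide), 8 were gained (3.73%) and 0 were lost (2.78%). Of the 21 CHD4 regions, 6 were called in both 2 h libraries (19.6%), 1 was gained (5.31%) and 2 were lost (1.45%). With lists of equal size, 3 of 15 CHD4 regions were called (10.4%), 0 gained (2.46%) and 4 lost (5.63%), and with −log10 q of at least 3 only 5 CHD4 regions were left, with 1 called (4.00%), 0 gained (1.71%) and 0 lost (2.12%). All 8 gained H3K27ac regions lay at Ikzf1, with 5 in introns, 1 upstream and 2 downstream, and their folds at 2 h ran from 2.62 to 6.37. The intronic region chr11:11700288-11703843 was called from 30 min on, with folds of 3.16 and 3.13, then 3.22 and 2.97 at 1 h, and 4.95 and 3.86 at 2 h, and chr11:11749451-11751490 from 1 h on, with 3.92 and 3.77 and then 6.37 and 3.29. The other 3 in introns were absent from both 1 h lists. Beside the first of these, chr11:11698288-11699922 was called in all 8 libraries, with H3K27ac folds of 4.77 and 5.63 at 0 h, 5.56 and 3.91 at 30 min, 4.79 and 4.35 at 1 h, and 7.31 and 5.10 at 2 h. Its 2 h and 0 h values overlapped, and the log2 change of 0.70 (SE 0.30, limma adjusted p 0.274) was not called by fold but was by summit fragments over coverage, at 0.80 (limma adjusted p 0.0150). Of the 67 H3K27ac regions at Ikzf1, 33 were called in 1 library, and in 22 of those the library was 2 h replicate 1. With every list held to the same number of peaks, 25 of 58 H3K27ac regions were called in both 2 h libraries (56.5% genome-wide), and 3 were gained and 3 lost, beside 2.39% and 5.20% of all H3K27ac regions of those lists. Among tested H3K27ac regions near members, the 2 lowest log2 changes at 30 min and at 2 h were also in the Ikzf1 window, at neighbouring genes, and these regions were chosen after their values were seen. Near Ddc, an amino acid decarboxylase gene, chr11:11820213-11821892 had folds of 15.1 and 13.1 at 0 h, 4.04 and 8.98 at 30 min, 4.52 and 6.49 at 1 h, and 4.59 and 5.06 at 2 h. Every later value lay under both 0 h values, and the log2 changes of −1.26, −1.08 and −1.08 (SE 0.44, limma adjusted p 0.377, 0.297 and 0.243) were not called. Inside it lay a gained Ikaros region, chr11:11820450-11821045, with no peak at 0 h or 30 min and folds of 5.52 in 1 h replicate 2 and of 3.52 and 2.94 at 2 h. At the Fignl1 TSS, chr11:11805528-11812150 had folds of 43.5 and 33.2 at 0 h, 37.6 and 11.5 at 30 min, 31 and 31.4 at 1 h, and 12.9 and 18.5 at 2 h. Both 2 h values were under both 0 h values, and the changes of −0.91, 0.01 and −0.84 (SE 0.36, limma adjusted p 0.451, 0.992 and 0.278) were not called.

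The length of each gene window covered by H3K27ac peaks uses regions called in any list. It was 42.0 and 43.6 kb at 0 h for Ikzf1, 48.6 and 35.9 kb at 30 min, 40.4 and 37.9 kb at 1 h, and 75.2 and 50.5 kb at 2 h. The 2 h libraries lay above both 0 h libraries, 2 h replicate 1 far above. For Ikzf3 it was 12.9 and 10.4 kb at 0 h, 12 and 10.6 kb at 30 min, 9.32 and 7.74 kb at 1 h, and 7.38 and 6.54 kb at 2 h, with each 1 h and 2 h value under each 0 h value. Ikzf4 ranged from 2.96 to 5.22 kb and Ikzf5 from 3.63 to 5.29 kb over the 8 libraries, and Ikzf2 was at 0 in all. For Ikzf4 the times overlapped, and for Ikzf5 the 2 h values of 4.63 and 4.64 kb stood just above the 0 h values of 4.16 and 4.29 kb. The log2 changes of these 2 windows ran from −0.17 to 0.08 and none was called.

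On the log2(kb + 1) scale, centred on the median window, the Ikzf3 window changed by −0.22, −0.37 and −0.71 at 30 min, 1 h and 2 h (SE 0.10, limma adjusted p 0.412, 0.0368 and 0.000245). It was among 4.61% of windows called lower at 1 h and 8.37% at 2 h. The 2 h call held in all settings tried, with values from −0.92 to −0.59, whereas the 1 h call ended whenever any 1 of the 4 libraries compared was left out. The Ikzf1 window changed by −0.22, −0.09 and 0.47 (SE 0.13, limma adjusted p 0.577, 0.753 and 0.0186), and at 2 h was among 9.51% of windows called higher. That call rested on single libraries. It ended without 2 h replicate 1, where the change was 0.24 (limma adjusted p 0.0928), without 0 h replicate 1 (0.167) or replicate 2 (0.0687), and with no centring (0.134). With lists of equal size it was 0.34 (limma adjusted p 0.0185). Most of the added length was in the gene body, which held 19.4 and 18.4 kb at 0 h and 44.2 and 27.8 kb at 2 h, against 13.4 and 15.1 kb and then 17.2 and 14 kb upstream. Of 4 windows tested, 0 were called at 30 min, where 0.963% of all windows were called in either direction (1 of 4 at an unadjusted limma p under 0.05, beside 11.2%). Windows of neighbouring genes overlap, so the Ikzf3 value also holds the peaks at Grb7, Zpbp2 and Ormdl3.

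**Figure D4:**
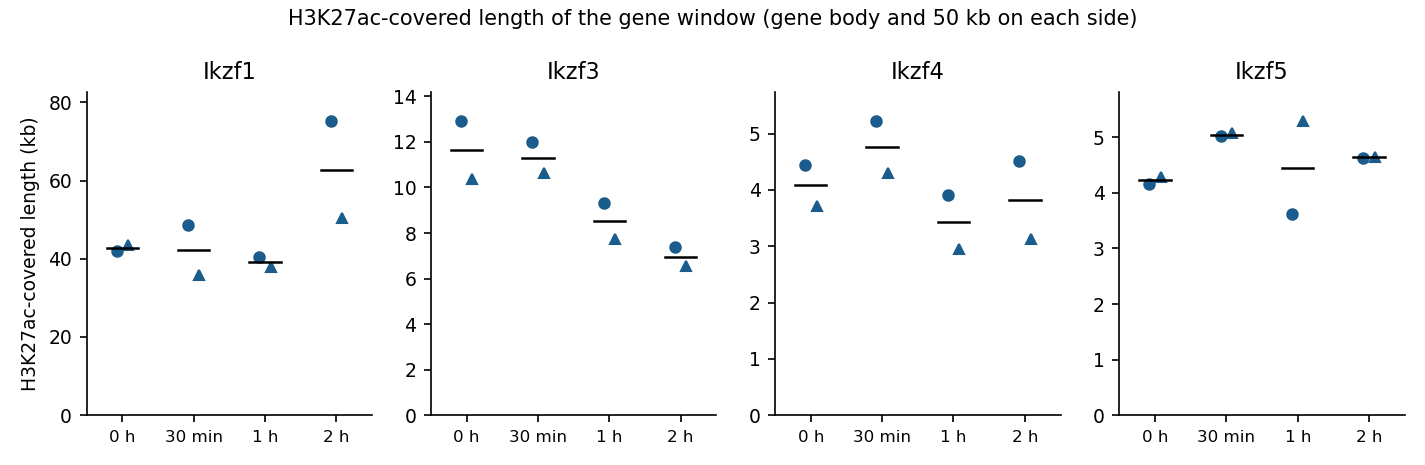
Length covered by H3K27ac peaks, in kb, in the windows of Ikzf1, Ikzf3, Ikzf4 and Ikzf5 by time, with a circle for replicate 1, a triangle for replicate 2 and a bar at their mean, on an axis of its own for each gene. The Ikzf1 window is highest in 2 h replicate 1 at 75.2 kb, and the Ikzf3 window goes from 12.9 and 10.4 kb at 0 h to 7.38 and 6.54 kb at 2 h.

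On 2 coding exons of Ikzf1 the H3K27ac peaks were nearly as wide as the exon. On exon 8 (chr11:11768881-11769578, 698 bp), H3K27ac and CHD4 were called in all 8 libraries, with median peak widths of 642.5 and 525 bp. Ikaros was gained there, with a median width of 422 bp and folds of 1.92 in 1 h replicate 2 and 2.33 and 1.88 at 2 h. On exon 4 (chr11:11748311-11748571, 261 bp) H3K27ac was called in all 8 libraries with a median peak width of 249 bp. The local background that the caller used was high on both. On exon 8 it was 9.45 to 13.9 times the library mean for H3K27ac and 9.80 to 15.8 times for Ikaros, and on exon 4 it was 2.98 to 8.23 times for H3K27ac. The other peaks near members had a median background of 1.03 times (H3K27ac, 375 peaks, highest 3.35) and 1.15 times (Ikaros, 152 peaks, highest 2.97). In the whole set, 207 of 208903 H3K27ac peaks (0.0991%) and 326 of 87592 Ikaros peaks (0.372%) had a background as high as the lowest on exon 8. On the other coding exons of Ikzf1, Ikaros and CHD4 had no peak. H3K27ac was called on them in 0 to 6 libraries, with a background of 1 to 2.54 times the library mean where a peak lay. The cells carry an introduced Ikaros coding sequence, and reads from it and from the exons of the endogenous gene cannot be told apart in these lists.

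The H3K27ac fold on exon 8 was 7.13 and 6.77 at 0 h, 9.09 and 6.34 at 30 min, 8.30 and 8.38 at 1 h, and 9.24 and 11.2 at 2 h. Both 2 h values lay above both 0 h values, but the log2 change of 1.01 (SE 0.28) was not called (limma adjusted p 0.102), though by summit fragments it was 0.79 and called (4.54e-05). On exon 4 the fold was 11.8 and 8.01 at 0 h, 12.5 and 7.36 at 30 min, 16.8 and 19.3 at 1 h, and 10.5 and 9.17 at 2 h, and the log2 changes were −0.05, 1.18 and 0.47 at 30 min, 1 h and 2 h (SE 0.29, limma adjusted p 0.972, 0.111 and 0.461). Both 1 h values lay above both 0 h values, and the 1 h change was the highest of the 21 H3K27ac regions tested near members, though it was not called. The CHD4 fold on exon 8 was 2.98 and 2.84 at 0 h, 2.63 and 2.09 at 30 min, 2.49 and 2.69 at 1 h, and 3.58 and 2.17 at 2 h. The 2 h replicates spanned those of 0 h, with a log2 change of 0.05 (SE 0.18). Without the peaks on these exons, 13 Ikaros, 5 CHD4 and 34 H3K27ac regions remained called near members in both 2 h libraries, and 3 Ikaros regions remained gained.

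**Figure D5:**
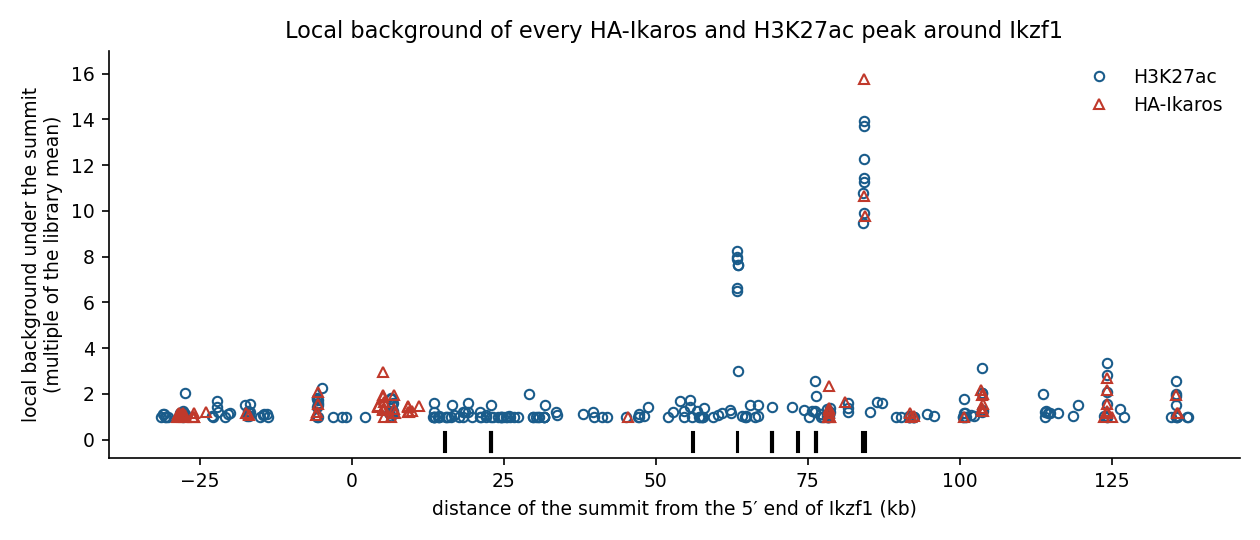
Local background under the summit of each Ikaros (triangles) and H3K27ac (circles) peak of the 8 lists around Ikzf1, as a multiple of the mean coverage of its library, against the distance of the summit from the 5′ end of the gene in kb, with black ticks at the coding exons. Peaks on exon 8 lie at 9.45 to 15.8 times the mean and those on exon 4 at 2.98 to 8.23, and peaks off these exons reach 3.35.

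Calls at promoters were also counted in 2 other groups of regulators. Ikaros lay at the TSS of 10 of 12 B-lineage transcription factor genes in both 2 h libraries, Pax5 and Ebf1 among them, and of 7 of 17 corepressor genes whose proteins bind Ikaros, such as Chd4, Mta2 and Ctbp1, and at 0 of 5 members, beside 21.4% of all protein-coding genes. A difference between these lists was not tested, and with 5 members a count of 0 is near what that share gives. H3K27ac lay at 10 of 12 and at 17 of 17 of these promoters, beside 43.3%, and CHD4 at 6 of 12 and 2 of 17, beside 5.89%.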

How the data were processed

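The data were 24 peak lists, 1 for each library, from ChIP-seq for HA-Ikaros, CHD4 and H3K27ac in B3 cells at 4 times with 2 replicates. The 8 input samples have no list here and were not analysed. According to the submitters' processing notes, the authors used Bowtie2 (2.4.2), Picard (2.23.7), MACS2 (2.2.7.1) and deepTools (3.5.0) with mm10. Narrow calling served Ikaros and H3K27ac, and broad calling CHD4. The study's methods give settings for 0 h, 1 h and 2 h, not for 30 min, and blacklist filtering of these files is not given in the sources used here. Each list deposited by the authors holds, for each peak, a fold enrichment (the ratio of pileup to local background), a −log10 p-value and a −log10 q-value. A deposited fold depends on the depth of the library and on the local background, and lists hold no value for regions without a peak. The folds printed by library are as deposited, so their differences between times can hold shifts common to many regions. The log2 changes are relative to the median region of each library.

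Peak positions were checked against GRCm38, and gene models came from GENCODE. Regions were merged within a target, and the highest fold of each region called in all 8 lists was compared as log2, centred on the median of those regions in each library, with limma (3.58.1, R 4.3.3). The fit held 4 time groups, no block, and a variance trend. Benjamini-Hochberg adjustment ran over all regions tested, and 0.05 was the threshold. Covered length used log2(kb + 1) over 15569 windows covered in at least 2 libraries. Counts of calls have no test, since 2 against 2 libraries cannot go below an exact two-sided p of 0.333. Depth was recovered from fold and p of the narrow peaks with −log10 p under 40. At least 99.97% of the pileups were whole within 0.05 fragments. Mean coverage was 1.98 to 3.59 fragments per base for Ikaros and 3.75 to 4.34 for H3K27ac, and that of CHD4 is unknown. The recovery of depth and the limma fit of regions at 2 h against 0 h were tested on simulated data. The other steps were not.

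Named regions were those of Ikaros or CHD4 called in both replicates of a time on a member gene body or TSS, and those of H3K27ac there that were in all 8 lists, gained or lost. The other regions described were chosen after their values were seen. The members and gene lists were chosen with earlier results of these data known. Same-numbered libraries did not deviate together (correlations from −0.047 to 0.176 over the 3 targets), so the numbers were not taken to pair them.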

Additional observations from a re-analysis of the deposited data

How the results depend on the processing

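The counts of regions near members depended on the window, the threshold and the list length. With 20 kb in place of 50 kb, 8 Ikaros and 3 CHD4 regions were called in both 2 h libraries, 0 CHD4 regions were gained and 1 was lost, and with 100 kb 1 H3K27ac region was lost. With −log10 q of at least 3, the CHD4 counts were 1 called, 0 gained and 0 lost, and H3K27ac had 4 gained and 1 lost. With a fold of at least 3, Ikaros had 2 gained and 1 lost, CHD4 2 called and 0 gained, and H3K27ac 5 gained and 2 lost. With lists of equal size, Ikaros had 2 called, 1 gained and 5 lost, CHD4 3 called, 0 gained and 4 lost, and H3K27ac 3 gained and 3 lost. Leaving out 1 replicate, so that a call needed 1 library of that time, gave 20 to 22 Ikaros, 9 to 12 CHD4 and 40 to 72 H3K27ac regions called at 2 h, with 4 to 10, 1 to 6 and 8 to 38 gained and 3 to 5, 2 to 4 and 0 to 4 lost. The highest H3K27ac counts, 72 called and 38 gained, were those without 2 h replicate 2.

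The counts from limma moved with the scaling of the fold. For H3K27ac, 1, 34 and 60 regions were called at 30 min, 1 h and 2 h, against 0, 18 and 91 with quantile normalization, 2 and 8 at the first 2 times with percentile ranks, 6 and 105 at 30 min and 2 h with a width-weighted mean fold, 0 at 30 min without the variance trend and 755, 2460 and 3199 with summit fragments over coverage (3, 5 and 5 near members). For Ikaros, 76, 152 and 136 were called, against 1, 21 and 20 with quantile normalization (0, 1 and 0 near members), 0 with percentile ranks and 337, 472 and 462 with summit fragments over coverage (2 near members at 30 min and 4 at 2 h). At 2 h, 2 near members were called with a width-weighted mean fold. For CHD4, 1, 3 and 4 were called, against 0 with quantile normalization, 0, 0 and 1 with percentile ranks, 2 at 30 min with a width-weighted mean fold, 0, 1 and 1 without the variance trend and 0, 0 and 1 with a mean fold of at least 3. Without 1 library, the ranges were 0 for H3K27ac at all 3 times, 16 to 31, 30 to 65 and 35 to 73 for Ikaros (0 to 1, 1 to 2 and 0 to 1 near members) and 0 to 1, 0 to 1 and 1 to 7 for CHD4. The cause of these moves was not tested. With a replicate block, H3K27ac had 0 and 20 called at 30 min and 1 h, CHD4 had 3 and 5, and Ikaros had 2 near members at 2 h, the added one being the site past Ikzf3. No other call near members changed with the block.

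Windows called in all numbered 150, 1035 and 2784 at the 3 times, against 24 at 30 min with a pseudocount of 0.1 kb, 676 and 1589 at 30 min and 1 h with no filter on low values, 76, 608 and 1833 with 20 kb windows, and 6, 150 and 925 with no centring. Without 1 library they numbered 10 to 50, 281 to 842 and 1231 to 3478. Near members at 1 h, 0 were called with the smaller pseudocount, with 20 kb, with no centring or without any 1 library, and at 2 h 1 was called with no centring and 1 to 2 without a library. The 1 h change at Ikzf3 was −0.40 with the smaller pseudocount, −0.36 with 20 kb, −0.41 with no centring and −0.48 to −0.26 without a library. The 2 h change at Ikzf1 was 0.52 with no centring and 0.24 to 0.71 without a library. Uncalled changes turned sign. At Ikzf4 the 30 min change was 0.00231 with no filter, 0.0191 with 20 kb, 0.18 with no centring and −0.0821 to 0.0621 without a library, and at 2 h −0.29 to 0.0289 without a library. At Ikzf5 it was −0.0486 at 1 h with 20 kb, −0.0482 at 2 h with equal lists (added, like the alternative without exon peaks, after the data were seen), and −0.0901 to 0.13 at 30 min and −0.20 to 0.36 at 1 h without a library.

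Single regions with uncalled changes also turned sign. H3K27ac at chr11:11758197-11765472 at 2 h was −0.20 with a width-weighted mean fold, −0.12 with summit fragments over coverage and −0.37 to 0.39 without a library, and at chr11:11654745-11662411 it was −0.37 to 0.17 without a library. Ikaros at chr11:11688815-11692220 was −0.43 at 30 min with summit fragments over coverage, and −0.0694 to 0.48, −0.48 to 0.0687 and −0.35 to 0.19 at the 3 times without a library. CHD4 at chr11:11688907-11696235 and chr11:11768929-11769525 was −0.18 to 0.10 and −0.34 to 0.44 without a library. Where a library was left out, the remaining library of its time was assumed to vary like the others.

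How deep the CHD4 libraries were is not known. The Ikaros libraries after 4-OHT were shallower than those of 0 h. Their lists at 1 h and 2 h were longer, with 12447 to 14874 peaks against 7822 and 9527 at 0 h. Whether weak sites were missed after 4-OHT was not tested. Only 5 Ikaros, 2 CHD4 and 21 H3K27ac regions near members were in all 8 lists and could be tested.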
